A study of Mus musculus with 10 samples.

Results

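The TREM2 lipid-associated macrophage genes are 9 genes expressed by macrophages that take up lipid and dying cells. They were taken by symbol and are Trem2, its adaptor Tyrobp, Cd9, Lpl, Fabp5, Cd68, Mmp12, Itgax and Lgals3. All 9 were measured, among 22180 genes with a symbol of their own on the array. The data come from whole livers of 10 mice, with 1 Affymetrix Mouse Gene 2.0 array per mouse and expression given on the log2 scale, so that a difference of 1 is a doubling. The 6 knockout mice (males 1, 2 and 3 and females 4, 5 and 6) were Vps33b fl/fl-AlfpCre, labelled as Vps33b liver-specific ko, and the 4 control mice (males 1 and 2 and females 3 and 4), labelled wild type, were Cre-negative Vps33b fl/fl littermates, so that both groups carried the loxP-flanked alleles on a C57BL/6J background. The Cre deletes Vps33b in hepatocytes and in cholangiocytes, and macrophages are not among the cells it targets. All mice of both groups ate a diet with 0.5% of the primary bile acid cholic acid (CA). The comparison asks how deletion of Vps33b, a gene of vesicle trafficking, in liver epithelium changes expression in the whole liver. Per the labels, feeding began at 10 weeks of age and lasted 2 weeks, whereas the general methods of the study give an earlier start and a longer feeding for the CA diet. Its passage on the arrays gives only a range of ages, which includes that in the labels.

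TREM2 is a receptor of tissue macrophages that binds lipids, lipoproteins and debris of dead cells. It has no signalling tail of its own and passes its signal through TYROBP, whose phosphorylated motif recruits the kinase SYK. Macrophages that engulf lipid-rich debris, in fat tissue, in the artery wall and around scars in the liver, are known to express TREM2 together with CD9, lipid-binding proteins, lysosomal proteins, a galectin and secreted proteases. Several of these genes are also used by other cells, such as Lpl by fat and muscle cells and Cd9, Cd63 and Lgals3 by epithelia.

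The targeted gene, Vps33b, read 9.12 to 9.15 on the log2 scale in the controls and 8.92 to 9.39 in the knockout mice. Whether its probe set covers the deleted exons is unknown here, so this value does not check the genotype labels. Sex labels matched the expression of sex-linked genes in 10 of 10 mice. Correlations between arrays ran from 0.982 to 0.991. In female livers, 3 genes of the Y chromosome read 3.38 to 4.51, a level that serves here as background. The lowest value of any of the 9 genes, 4.76 for Itgax in control 1, lay above that range.

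Of the 9 genes, 6 were higher in knockout than in control livers at an adjusted p under 0.05 in limma (Trem2, Tyrobp, Cd9, Cd68, Itgax and Lgals3), none was lower and 3 did not pass (Lpl, Fabp5 and Mmp12). All but Fabp5 had an unadjusted p under 0.05, each with higher values in knockout livers. No share of all genes at an unadjusted p is given here. By p these 8 genes ranked from 218 (Cd9) to 1128 (Lpl) among the 22180 genes. Over all genes tested, 3.11% were higher and 1.14% were lower at an adjusted p under 0.05 (4.25% in either direction). The median log2 fold change, knockout minus control, was 0.89 over the 9 genes and -0.01 over all genes. In 4 of the 9 genes every knockout mouse lay above every control mouse, against 3.39% of all genes, and in none did every knockout mouse lie below (1.93% of all genes). In bulk liver, more cells of a type and more RNA per cell cannot be told apart, and this holds for every difference given here.

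**Figure D1:**
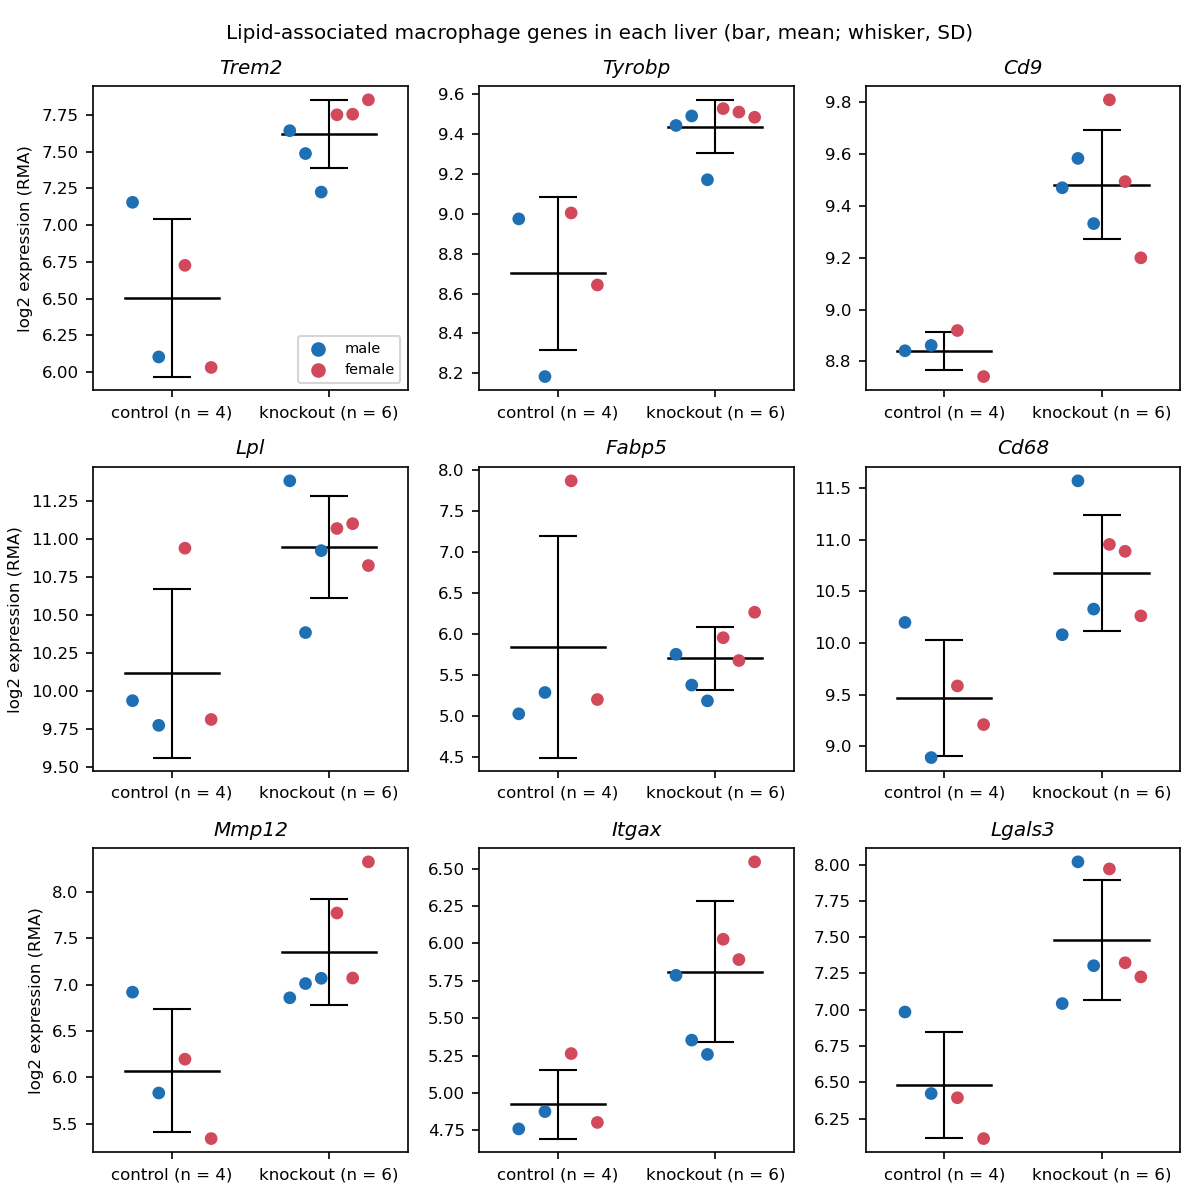
Log2 expression (vertical axis, RMA values) of the 9 genes in each control (n = 4) and knockout (n = 6) liver. Each point is 1 mouse, blue for males and red for females, the bar is the mean and the whisker the SD. The groups do not overlap for Trem2, Tyrobp, Cd9 and Lgals3, and control 3, a female, stands at 7.86 for Fabp5 and at 10.94 for Lpl.

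For several of these genes the letters before the transcription start can be read from the RefSeq promoter table (build GRCm38.p6). It lists 6 of the 9 genes, with 7 promoters, and Tyrobp, Lpl and Fabp5 were not among them. In the 250 bases before each start, 14 motifs were searched on both strands. The motif of AP-1 factors, TGANTCA, reads the same on both strands. It was in 4 of the 7 promoters, those of 4 of the 6 genes, and in 6.75% of all 32851 promoters. These 4 are printed because they share it, from 5′ to 3′ with the strand of the gene and with the AP-1 letters in capitals. Mmp12 has a pair of listed starts, and the letters lie before the downstream one and not before the upstream one.
Trem2, chr17:48346151-48346400, plus strand: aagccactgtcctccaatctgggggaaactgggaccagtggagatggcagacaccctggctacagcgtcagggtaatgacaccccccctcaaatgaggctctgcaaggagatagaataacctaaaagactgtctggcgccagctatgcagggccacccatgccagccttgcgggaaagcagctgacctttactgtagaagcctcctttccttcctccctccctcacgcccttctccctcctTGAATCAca
Itgax, chr7:128129300-128129549, plus strand: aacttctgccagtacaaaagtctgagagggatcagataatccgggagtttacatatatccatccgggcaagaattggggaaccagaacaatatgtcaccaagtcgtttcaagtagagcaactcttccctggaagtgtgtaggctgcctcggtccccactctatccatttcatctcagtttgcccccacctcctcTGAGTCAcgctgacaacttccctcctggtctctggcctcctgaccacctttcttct
Cd68, chr11:69666171-69666420, minus strand: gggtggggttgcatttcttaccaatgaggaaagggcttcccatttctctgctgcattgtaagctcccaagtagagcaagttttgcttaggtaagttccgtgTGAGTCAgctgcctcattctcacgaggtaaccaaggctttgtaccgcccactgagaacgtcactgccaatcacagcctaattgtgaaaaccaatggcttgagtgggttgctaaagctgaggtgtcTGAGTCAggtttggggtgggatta
Mmp12, chr9:7347124-7347373, plus strand: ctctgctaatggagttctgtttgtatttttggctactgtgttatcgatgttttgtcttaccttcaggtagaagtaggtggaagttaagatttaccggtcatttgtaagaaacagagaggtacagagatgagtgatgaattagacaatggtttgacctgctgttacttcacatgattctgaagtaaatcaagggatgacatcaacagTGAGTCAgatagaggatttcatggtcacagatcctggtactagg

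The capitals begin 9 bases before the start in Trem2, 56 in Itgax and 44 in Mmp12. Cd68 holds them at 2 places, 149 and 24 bases before its start. These starts are those of the RefSeq promoters. For Itgax the printed stretch ends at 128129549, past the first base of the gene as located below (128129530). The letters of PU.1, the macrophage lineage factor (GAGGAAG), were found for Mmp12 and Trem2 and in 10.6% of all promoters. For Mmp12 they lie before the upstream start, in the longer form GAGGAAGT (2.44% of all promoters). Those of C/EBP (TTGCNNAA) were found for Mmp12 and Cd68 and in 9.56% of all promoters. CCAAT was found for Itgax, Cd68, Lgals3 and Trem2 and in 33.8% of all promoters. No match was found for the E-box CACGTG (6.02% of all promoters), its longer form TCACGTG (3.13%), or the STAT letters TTCNNNGAA (7.02%). The RUNX letters TGTGGTT (4.40%) and the TATA letters TATAAA (12.4%) were not found either. The same holds for the IRF motif, read as GAAA repeated after 2 bases of any kind (2.98%), for the NF-kB motif, read as GGGA, 2 bases of any kind and TTCC (1.21%), or in a stricter form whose second free base is T (0.356%), and for the LXR motif, AGGTCA repeated after 4 bases (0.0152%). These matches describe the sequence, and binding was not measured.

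Trem2, the receptor itself (chromosome 17, 48346401 to 48352276), read 7.16, 6.10, 6.73 and 6.03 in controls 1 to 4. In the knockout livers it ran from 7.23 in knockout 3 to 7.85 in knockout 6, with a median of 7.70. The 2 groups did not overlap, and the knockout mice lay closer together (SD 0.23, n = 6) than the controls (SD 0.53, n = 4). The log2 fold change was 1.11 (SE 0.21, 95% interval 0.66 to 1.57, adjusted p = 0.0137), a 2.16-fold difference. Without control 2 the call was lost (log2 fold change 0.98, adjusted p = 0.0627).

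Tyrobp (chromosome 7, 30413782 to 30417582) encodes the adaptor that carries the signal of TREM2 and of several other receptors of myeloid and natural killer cells. Controls 1 to 4 read 8.97, 8.18, 9.005 and 8.64. Knockout mice ran from 9.17 in knockout 3 to 9.53 in knockout 4, with a median of 9.49, so that they lay above all controls, and 5 of the 6 stood between 9.44 and 9.53. Its log2 fold change was 0.74 (SE 0.14, 95% interval 0.43 to 1.04, adjusted p = 0.0159), a 1.67-fold difference. It did not pass without control 4 (0.68, adjusted p = 0.0683).

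Cd9 and Itgax encode surface proteins. CD9, a tetraspanin that organises other membrane proteins, is encoded on chromosome 6 from 125460270 to 125494760. Its level was 8.84, 8.86, 8.92 and 8.74 in controls 1 to 4, the narrowest control range of the 9 genes, and ran from 9.20 in knockout 6 to 9.81 in knockout 4, with a median of 9.48. The difference, 0.64 on the log2 scale (SE 0.11, 95% interval 0.40 to 0.88, adjusted p = 0.0103), passed the test with each of the 10 mice left out in turn. It rests on 1 of 2 probe sets: the other one read 4.89 to 5.30 over all mice with a log2 fold change of 0.00, and with the mean of the 2 sets the gene did not pass (0.32, adjusted p = 0.102).

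Itgax encodes CD11c, the integrin alpha X chain found on dendritic cells and on some activated macrophages (chromosome 7, 128129530 to 128150660). It read 4.76, 4.87, 5.26 and 4.80 in controls 1 to 4. The knockout livers ran from 5.26 in knockout 3 to 6.55 in knockout 6, with a median of 5.84. Knockout 3, a male, fell just below control 3, a female, so that the groups overlapped by 1 mouse, yet every knockout mouse lay above both controls of its own sex. Such an order within each sex was seen in 5 of the 9 genes, against 5.20% of all genes, and the opposite order in none, against 3.72%. The log2 fold change of Itgax was 0.89 (SE 0.16, 95% interval 0.53 to 1.25, adjusted p = 0.0134), and without control 4 it did not pass (0.74, adjusted p = 0.0531).

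Lpl and Fabp5 handle fatty acids. Lipoprotein lipase, which frees fatty acids from the triglycerides of circulating lipoproteins, is encoded by Lpl (chromosome 8, 68880555 to 68906932). Lpl read 9.94, 9.77, 10.94 and 9.81 in controls 1 to 4 and 10.38 in knockout 2 to 11.38 in knockout 1, with a knockout median of 10.995. Control 3 lay inside the knockout range and the other 3 controls lay below all knockout mice. With all mice the difference did not pass (log2 fold change 0.83, SE 0.22, 95% interval 0.34 to 1.32, adjusted p = 0.0627). Without control 3 it did (1.10, adjusted p = 0.0152). A second probe set of Lpl put control 3 above all other mice, at 7.14, with the other controls at 5.26 to 5.70 and the knockout mice at 5.91 to 6.72. In limma over all probe sets this set did not pass (log2 fold change 0.63, adjusted p = 0.243). Nor did the gene with the mean of the 2 sets (0.73, adjusted p = 0.125).

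FABP5, a carrier of fatty acids in the cytoplasm, is encoded by Fabp5 on chromosome 3 from 10012585 to 10016610. Fabp5 read 5.03, 5.29, 7.86 and 5.20 in controls 1 to 4 and 5.19 in knockout 3 to 6.26 in knockout 6, with a knockout median of 5.71. The groups overlapped fully, with 1 control above all the other mice. Its log2 fold change was -0.14 (SE 0.40, 95% interval -1.02 to 0.73, adjusted p = 0.909), and without control 3 it was 0.47 (adjusted p = 0.204), so neither the direction nor a difference can be given. Control 3 was also the highest mouse in the other 3 probe sets that carry this symbol, at 6.90, 7.81 and 7.84. Which transcripts these sets read, and whether copies of the gene share them, is unknown here. The mean level of 5 fat cell markers was 4.79 in control 3, 5.40 in control 1 and 4.58 to 4.96 in the knockout mice, and Adipoq, the adipokine that defines fat cells, had means of 3.97 and 3.86 in control and knockout livers, in the background range. The part of fat cells in the values of control 3 was not tested.

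**Figure D2:**
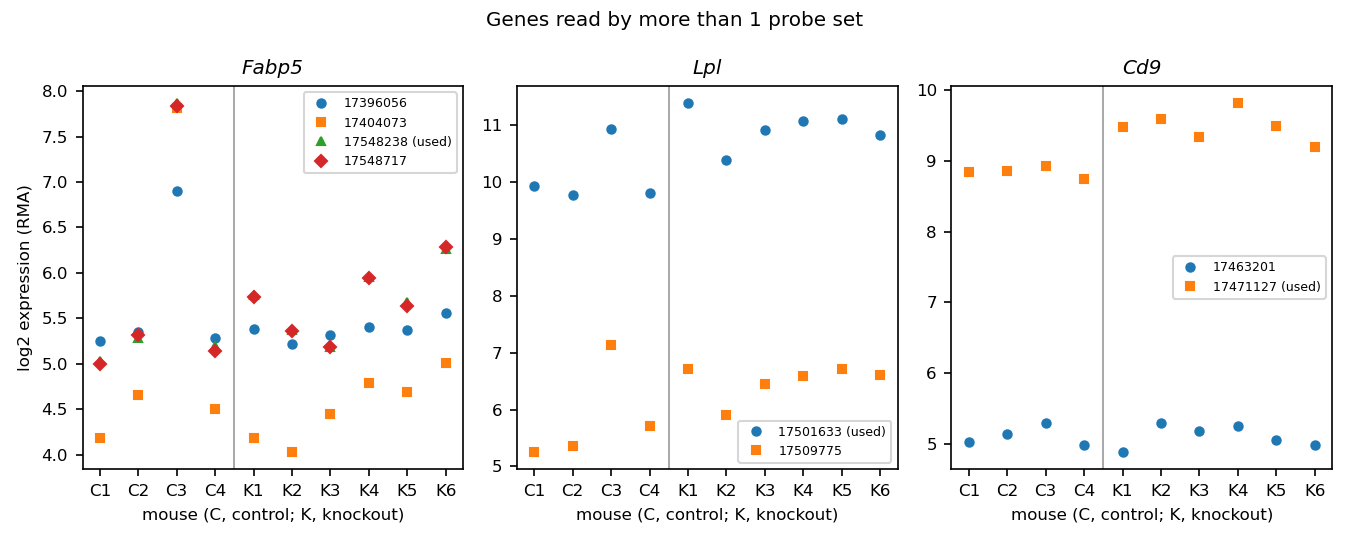
Log2 expression (vertical axis) in each mouse (horizontal axis, C for control and K for knockout) of every probe set that carries the symbol Fabp5, Lpl or Cd9 alone. Each colour is 1 probe set, and the set used is named so. Control 3 is the highest mouse in all 4 sets of Fabp5, at 6.90 to 7.86, and the dim set of Cd9 stays between 4.89 and 5.30.

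Cd68 encodes a heavily glycosylated protein of macrophage lysosomes (chromosome 11, 69664213 to 69666170). In controls 1 to 4 it read 10.20, 8.89, 9.58 and 9.21. It ran from 10.08 in knockout 1 to 11.57 in knockout 2, with a median of 10.61, and knockout 1 fell below control 1. The log2 fold change of Cd68 was 1.21 (SE 0.31, 95% interval 0.54 to 1.88, adjusted p = 0.0493), a 2.31-fold difference that passed narrowly. It passed in 3 of the 10 fits that left out 1 mouse, those without control 1, knockout 1 or knockout 3, and the adjusted p reached 0.179 without control 2.

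Mmp12 and Lgals3 encode secreted proteins. MMP12, the macrophage elastase, is encoded on chromosome 9 from 7344397 to 7360461. Mmp12 read 6.92, 5.83, 6.20 and 5.34 in controls 1 to 4 and 6.86 in knockout 1 to 8.32 in knockout 6, with a median of 7.07 in the knockout mice. Control 1 stood just above knockout 1 and below the other 5 knockout mice. Its log2 fold change of 1.28 was the largest of the 9 genes and missed the threshold narrowly (SE 0.33, 95% interval 0.56 to 1.99, adjusted p = 0.0502). Without control 1 it passed (1.64, adjusted p = 0.00782).

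Galectin-3, a lectin that binds beta-galactosides on cell surfaces and in damaged lysosomes, is encoded by Lgals3 (chromosome 14, 47373860 to 47386167). Controls 1 to 4 had 6.98, 6.42, 6.39 and 6.11, and the knockout mice ran from 7.04 in knockout 1 to 8.02 in knockout 2, with a median of 7.31. The groups did not overlap, although control 1 lay close to knockout 1. The log2 fold change of Lgals3 was 1.002 (SE 0.22, 95% interval 0.53 to 1.47, adjusted p = 0.0258). Its call was lost without control 2, control 3, control 4 or knockout 2, with an adjusted p of at most 0.100.

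The same mice stood at the ends of the range for several of the 9 genes. Control 3 was the highest control for 5 genes and control 1 for the other 4, while control 4 was the lowest for 4. Among the knockout mice, knockout 6 was the highest for 4 genes and knockout 3 the lowest for 4. Controls 1 and 3 were both left out in an alternative added after the values had been seen. In it 8 of the 9 genes were higher, all but Fabp5. As these 2 mice held the highest control value of every gene of the 9, leaving them out favours larger differences. The count of 8 is therefore no independent support. Over all genes 564 were higher in that fit, against 690 with all mice. Without control 2 the count among the 9 was 3 (Tyrobp, Cd9 and Itgax) and without control 4 it was 2 (Trem2 and Cd9). The count over all genes fell as well, from 690 to 233 without control 2 and to 244 without control 4.

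**Figure D3:**
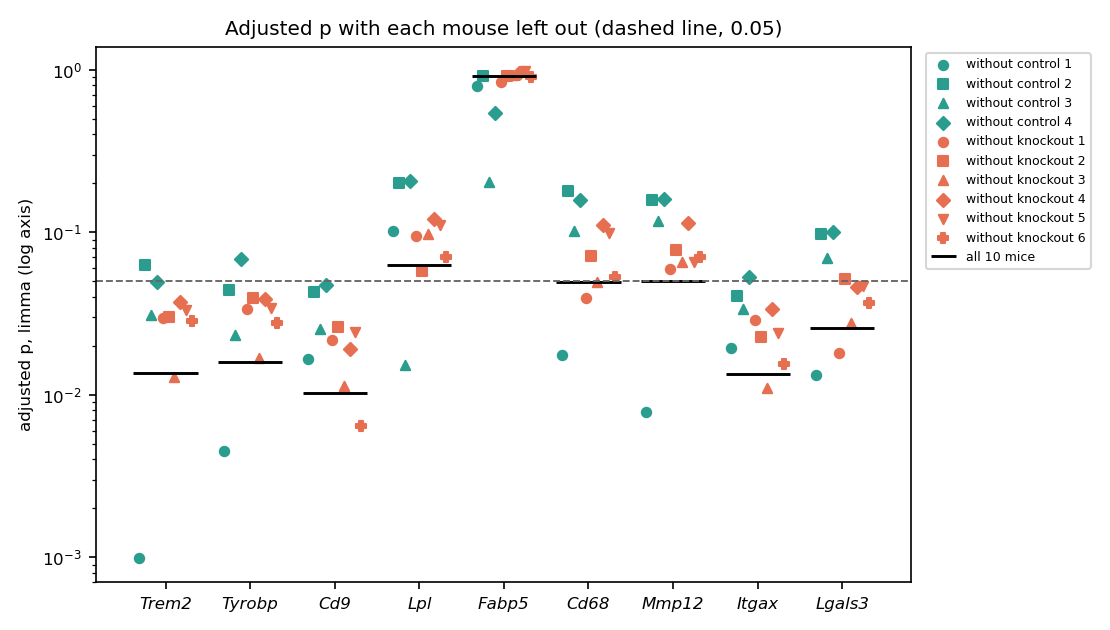
Adjusted p from limma (vertical log axis) of each of the 9 genes with each mouse left out in turn (green, controls; orange, knockout mice; shapes as in the legend) and with all 10 mice (black bar). The dashed line is 0.05. Every point of Cd9 lies under the line, from 0.00643 to 0.0474, every point of Fabp5 above it, from 0.204 to 0.977, and the other genes cross it.

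Since both groups held both sexes, the genotype effect could be compared between males and females. All 9 genes had a positive log2 fold change in males and 8 had one in females, all but Fabp5 (0.28 in males and -0.57 in females). The median over the 9 genes was 0.75 in males and 1.12 in females. For Trem2 the effect was 0.82 in males and 1.41 in females, for Lgals3 0.75 and 1.25, and for Itgax 0.65 and 1.12. None of these differences passed the test. No gene of the 9 differed between the sexes in limma, with adjusted p of the difference from 0.801 to 0.983, and 1 of all 22180 genes did (0.00451%).

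Mmp12 had the largest gap between the sexes, with a log2 fold change of 0.60 in males and 1.95 in females (difference -1.35, SE 0.54). It was the 1 gene of the 9 with an unadjusted p under 0.05 for the difference (0.0305 in limma, adjusted p = 0.801). Taken alone, females gave 3 calls (Trem2, adjusted p = 0.0489, and Mmp12 and Itgax, each 0.0476), against 0.699% of all genes higher. Males gave none, against 0.266%. An unadjusted p under 0.05 was seen for 7 of the 9 genes in males and 7 in females. Both shares of all genes are for the adjusted p, and none is given for the unadjusted p. Each sex alone had 2 controls and 3 knockout mice, and a call in 1 sex only is no test of a difference between them. The 2 controls of a sex could lie far apart. Male controls 1 and 2 read 7.16 and 6.10 for Trem2 and 6.92 and 5.83 for Mmp12. Female controls 3 and 4 read 7.86 and 5.20 for Fabp5 and 10.94 and 9.81 for Lpl.

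**Figure D4:**
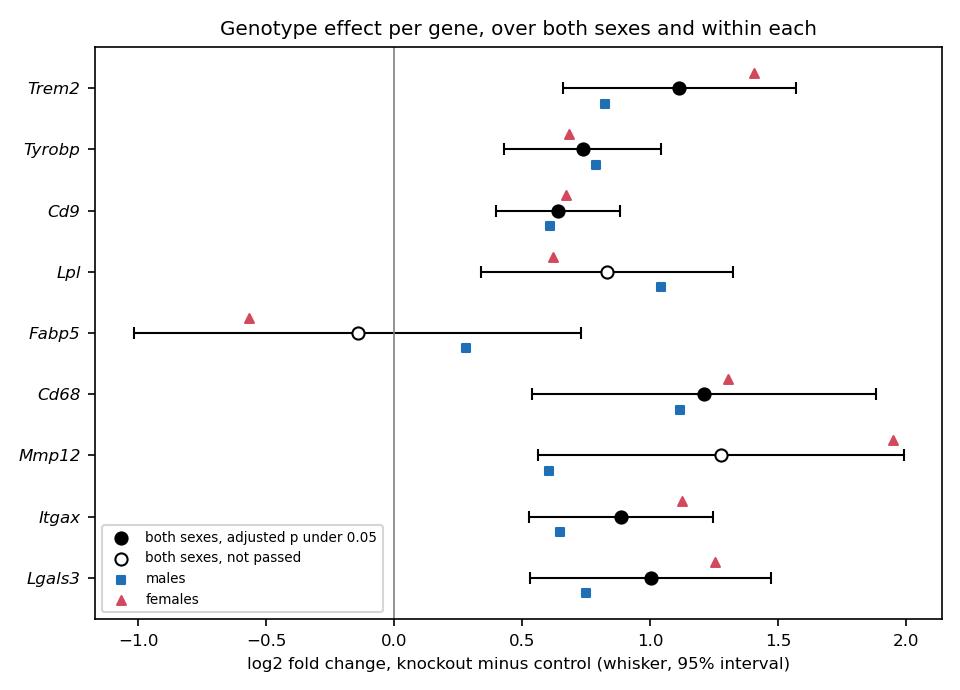
Log2 fold change, knockout minus control (horizontal axis), of the 9 genes over both sexes (circles with 95% intervals, filled where the adjusted p was under 0.05) and within males (blue squares) and females (red triangles). All but Fabp5 lie right of 0 in both sexes, and the gap between the sexes is widest for Mmp12, at 0.60 and 1.95.

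The route from TREM2 into the cell was taken from a list of 10 genes, all measured, of which 1 was higher, none lower and 9 did not pass, with a median log2 fold change of 0.15. The 1 that passed was Vav1, a signalling protein of blood cells (log2 fold change 0.56, adjusted p = 0.0176), at 6.46 to 7.16 in the controls and 7.05 to 7.39 in the knockout mice. Syk, the kinase that TYROBP recruits, missed the threshold (0.51, adjusted p = 0.0557), but its groups did not overlap, at 5.22 to 5.96 in controls and 6.11 to 6.43 in knockout mice. Inpp5d, the lipid phosphatase SHIP1 that restrains this signal, had 0.60 (adjusted p = 0.0619), and Hcst, another adaptor that can pair with TREM2, had -0.23 (adjusted p = 0.293). Syk, Inpp5d and Hcst were named after their values had been seen. Without control 2 or control 4 no gene of this list passed, and without control 1 there were 3.

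Of 10 other receptors of the TREM family or paired with TYROBP, 2 were higher and none lower, with a median log2 fold change of 0.23. Cd300lb, an activating receptor for lipids and dead cells, read 5.06 to 5.61 in controls and 5.69 to 6.14 in knockout mice (0.60, adjusted p = 0.0269). Pilrb1, a paired activating receptor, overlapped by its edges, at 4.88 to 5.48 and 5.44 to 5.86 (0.45, adjusted p = 0.0458). Neither call held without control 2, 3 or 4 or knockout 2, 4 or 5, since the count was then 0. Pilrb1 also did not pass with no sex term, in the fit of 4 groups, with arrays centred on the median or after quantile normalisation, which left 1 call. Trem1, the inflammatory relative on neutrophils and monocytes, read 4.31 and 4.46 in the group means, close to background (0.15, adjusted p = 0.479), and was named after its value had been seen.

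A further 20 genes that accompany Trem2 in lipid-associated macrophages were listed, and Spp1 was not among the genes measured by a probe set of its own. Of the 19 measured, 9 were higher, none was lower and 10 did not pass, with a median log2 fold change of 0.47. Among them, Lgmn, a lysosomal protease that cuts after asparagine, read 10.29 to 10.87 in controls and 11.11 to 11.44 in knockout mice (0.71, adjusted p = 0.00937). Ctss, a cathepsin of antigen-presenting cells, read 8.88 to 9.37 and 9.40 to 10.02 (0.74, adjusted p = 0.0118). Neither gene overlapped between the groups.

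The largest difference of this list was that of Gpnmb, a membrane glycoprotein induced by lysosomal stress, at 5.16 to 7.34 in controls and 7.41 to 9.27 in knockout mice (2.91, adjusted p = 0.00701). Cd63, a lysosomal tetraspanin, had 1.85 (adjusted p = 0.0128) and Cd36, a scavenger receptor for lipoproteins and fatty acids, had 0.67 (adjusted p = 0.0161), both with overlapping groups. Lgals1, Capg, Mmp14 and Atp6v0d2 also passed. The lipid droplet gene Plin2 (0.00, adjusted p = 0.998), the lysosomal lipase Lipa (-0.04, adjusted p = 0.889) and Apoe (-0.17, adjusted p = 0.312), named after their values had been seen, did not. The count of 9 was 2 without control 2, 3 without control 4 and 5 without knockout 4.

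Of 10 listed partners and regulators of lipoprotein lipase, 8 were measured and none passed the test with all mice, with a median log2 fold change of -0.00, and 1 had an unadjusted p under 0.05. The smallest p belonged to Angptl8, an inhibitor of the lipase that the fed liver secretes, at 9.81 to 11.85 in controls and 9.02 to 10.31 in knockout mice (-1.23, adjusted p = 0.0616). Angptl8 passed as lower in the fit of 4 groups of genotype and sex, among genes with a mean of at least 5, with array weights, and without control 1 or knockout 3. Apoa5, an activator, had -0.15 (adjusted p = 0.579).

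Among 24 relatives of the 9 genes, 4 were higher, 1 was lower and 19 did not pass, with a median log2 fold change of 0.13. Itgb2, the beta chain that pairs with CD11c, read 7.60 to 8.22 in controls and 8.40 to 8.93 in knockout mice (0.77, adjusted p = 0.00794). Itgal, another alpha chain of Itgb2, had 0.46 (adjusted p = 0.0208), and Cd53, a leukocyte tetraspanin, had 0.68 (adjusted p = 0.0272). Their groups did not overlap either. Fabp2, the intestinal-type relative of Fabp5, was the 1 that fell, at 10.51 to 10.86 in controls and 9.81 to 10.27 in knockout mice (-0.64, adjusted p = 0.00794). Mmp2, a gelatinase of fibroblasts, had 0.83 (adjusted p = 0.0375). Without control 2, control 4 or knockout 4 the 4 higher genes became 1, and without knockout 1 they became 2.

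**Figure D5:**
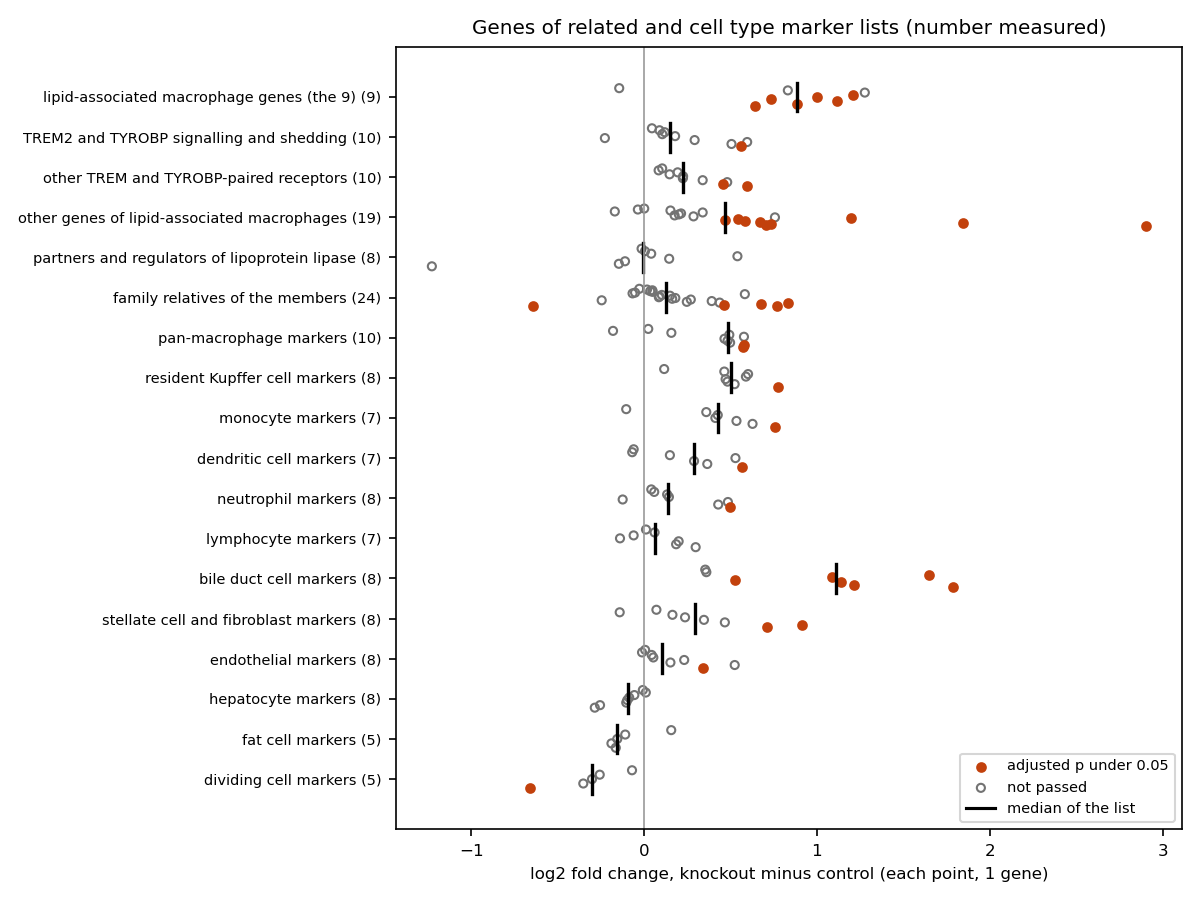
Log2 fold change, knockout minus control (horizontal axis), of every measured gene of the 9 and of each related and cell type marker list (rows, number measured in brackets). Orange points had an adjusted p under 0.05 in limma and the black line is the median of the list, which is 0.89 for the 9 genes, 0.47 for the other genes of lipid-associated macrophages, 0.49 for pan-macrophage markers and 1.11 for bile duct cell markers.

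Marker genes of several cell types were also counted. Most did not pass the test, and the part of those that did in the differences of the 9 genes was not tested. Of 10 pan-macrophage markers, 2 were higher and none lower (median 0.49), with C1qa at 0.57 (adjusted p = 0.0181) and C1qb at 0.58 (adjusted p = 0.0441). Their mean level per mouse ran from 7.97 to 8.51 in controls and from 8.43 to 8.88 in knockout mice. Of 8 Kupffer cell markers, 1 was higher, the scavenger protein gene Cd5l (0.78, adjusted p = 0.0368), and all 8 had a positive log2 fold change (median 0.50), with mean levels of 9.07 to 9.49 and 9.41 to 10.04. So both lists overlapped between the groups. The 2 pan-macrophage calls became 0 without control 2 or 4 and 4 without control 1 or knockout 6. The 1 Kupffer cell call became 0 without control 2 or 4 or knockout 1, 2, 4 or 5. It became 6 calls without knockout 6. Without control 3 the 1 Kupffer cell call was Timd4, and Cd5l did not pass.

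Each of the 9 genes can be read against the macrophage markers of the same liver, as its log2 value minus their mean, both taken as differences from the control mean. For Trem2 this difference was 0.75 higher in knockout mice, and 4 of the 6 lay above all controls. It was 0.91 for Mmp12, 0.84 for Cd68, 0.64 for Lgals3, 0.52 for Itgax, 0.47 for Lpl, 0.37 for Tyrobp, 0.27 for Cd9 and -0.51 for Fabp5. In all 9 the groups overlapped on this scale. The knockout mice above all controls numbered 5 for Tyrobp, 4 for Cd68, Itgax and Lgals3 and 3 for Mmp12. They numbered 2 for Cd9 and Lpl and 0 for Fabp5. The mean of these markers was 0.37 higher in knockout livers, less than the list median of 0.49, so the result depends on which markers are averaged. Against the Kupffer cell markers the differences of the 9 genes were all lower, with 0.61 for Trem2 and 0.14 for Cd9.

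Among other immune cells, 1 of 7 monocyte markers was higher (Chil3, 0.76, adjusted p = 0.0229, list median 0.43), 1 of 7 dendritic cell markers (H2-Aa, 0.57, adjusted p = 0.0431, median 0.29) and 1 of 8 neutrophil markers (Csf3r, 0.50, adjusted p = 0.0239, median 0.14). The neutrophil genes S100a8, Ly6g, Camp and Ngp had group means of 3.45 to 4.11, at background. The highest knockout value was 5.02 for S100a8 and 4.90 for Retnlg, another of the 8, both above the background range. Of the 8 neutrophil markers, 7 had a positive log2 fold change. None of 7 lymphocyte markers passed, nor had an unadjusted p under 0.05 (median 0.06), with Cd3g at 0.30 (adjusted p = 0.335) and Cd3e at 0.19 (adjusted p = 0.439). Mean levels of the monocyte list ran from 4.89 to 5.27 in controls and from 5.18 to 5.88 in knockout mice. The highest was knockout 6, which was also highest for Trem2, Mmp12, Itgax and, among knockout mice, Fabp5. For the other genes of the 9 this mouse ranked low among the knockout mice. Its rank was 6 for Cd9, 5 for Lpl, Cd68 and Lgals3 and 4 for Tyrobp.

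Bile duct cell markers had the highest median of the cell type lists, 1.11 on the log2 scale, with 6 of 8 higher and none lower. The lowest adjusted p belonged to Tspan8, a tetraspanin like Cd9, at 4.76 to 5.41 in controls and 6.36 to 7.81 in knockout mice (1.78, adjusted p = 0.000755). The mean level of this list did not overlap between the groups, at 5.72 to 5.95 and 6.51 to 7.26. Its highest mouse, knockout 4, was also the highest for Cd9 and Tyrobp. For the other genes of the 9, knockout 4 ranked 2 or 3 among the knockout mice. Muc1 (1.22, adjusted p = 0.000996), Epcam (1.14, adjusted p = 0.000996), Krt19 (0.52, adjusted p = 0.0133) and Sox9 (1.09, adjusted p = 0.0188) passed as well, as did Cldn4.

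In the remaining lists, 2 of 8 stellate cell and fibroblast markers were higher (Col3a1, 0.71, adjusted p = 0.0116, and Col1a1, 0.91, adjusted p = 0.0266) and 1 of 8 endothelial markers (Cdh5, 0.34, adjusted p = 0.0373). Hepatocyte markers gave no call in 8 (2 at an unadjusted p under 0.05, median -0.09), with Serpina1a at -0.28 (adjusted p = 0.0802) and Tat at -0.25 (adjusted p = 0.127), and fat cell markers none in 5 (none at an unadjusted p under 0.05, median -0.15), with Plin1 at -0.16 (adjusted p = 0.408) and Retn at -0.19 (adjusted p = 0.635). Of 5 markers of dividing cells 1 was lower, Birc5 (-0.66, adjusted p = 0.0148), and none was higher. Without control 2 or control 4, none of the monocyte, dendritic cell, neutrophil, stellate cell and endothelial markers passed. Leaving out other mice also ended calls. Cdh5 passed only without control 1 or knockout 6. H2-Aa was also lost without control 3 or knockout 1, 2, 4 or 6. Csf3r and Col1a1 were also lost without control 3 or knockout 4, and Chil3 without control 3. With no sex term the calls of Cdh5 and of the 1 monocyte marker were also lost, and in the fit of 4 groups that of the 1 dendritic cell marker. Serpina1a passed as lower among genes with a mean of at least 5, and with trend and robust moderation, where Tat did too.

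The genes whose values followed Trem2 most closely over the 10 mice were found by the root mean square difference of gene-centred log2 values. Nearest was Clec7a, the beta-glucan receptor Dectin-1 of myeloid cells, at 0.161, followed by Tagln2 at 0.175, the scaffold gene Iqgap1 at 0.181, the collagen receptor gene Ddr1 at 0.197 and the NF-kB subunit gene Nfkb2 at 0.212. Clec7a read 7.61 to 8.85 in controls and 8.70 to 9.37 in knockout mice, so that its groups overlapped where those of Trem2 did not. Nearest to Lpl were the growth factor gene Pdgfd at 0.215, Nipal2 at 0.246, Abcg3 at 0.252, Ms4a6d at 0.260 and Adgrg6 at 0.261. The distances to Lpl were larger than those to Trem2 at each rank. This likeness is a description over 10 mice and includes the difference between the 2 genotypes.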

How the data were processed

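Liver RNA of 10 mice was measured with 1 Affymetrix Mouse Gene 2.0 array each. The authors made the deposited log2 values with RMA (background correction, quantile normalisation and summary of the probes) in oligo, versions not given in the sources used here. Of 41345 probe sets, the platform annotation gives 23521 a single gene symbol. Those with several (1820) or none listed (16004) were left out, and where probe sets shared a gene (1082 genes) that of highest mean was kept, which left 22180 genes. The number of arrays limits the precision, and arrays give no read depth. No slide or scan date was used.

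The model, fitted to each gene with limma 3.58.1 under R 4.3.3, had a genotype and a sex term and empirical Bayes moderation. P-values were adjusted by Benjamini-Hochberg over all genes, and 0.05 was the threshold. Effects within each sex and their difference came from 1 fit with 4 groups. The pipeline was tested on simulated data. Alternatives were other model terms, probe set choices, a filter at a mean log2 value of 5, scalings, moderation, array weights, a replicate block and leaving out each mouse. Leaving out controls 1 and 3 together and the other probe sets of the 9 genes were added after the values had been seen.

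The 9 genes and all lists were chosen with earlier results of these data known. Named are the 9, from each list at most 5 genes past the threshold with the smallest adjusted p, or, where none passed, the 2 with the smallest p, the 5 genes most like Trem2 and like Lpl, and Vps33b. Other genes, such as the remaining calls of a list and markers at background, were named after their values had been seen.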

Additional observations from a re-analysis of the deposited data

Results flagged for a closer look

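In 3 of the 18 sets of values (9 genes in 2 groups), 1 mouse lay apart from the others of its group by Dixon's criterion at 95%, which chance alone meets in about 1 of 20. Fabp5 in control 3 was 7.86 on the log2 scale, with a gap to the nearest control of 0.909 of the range of the group. Lpl in control 3 was 10.94, with a gap of 0.861 of the range. Tyrobp in knockout 3 was 9.17, below the other knockout mice, with a gap of 0.763 of the range. The values of Fabp5 and Lpl come from the same mouse.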

How the results depend on the processing

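The number of the 9 genes that were higher in knockout livers, 6 with all mice, ran from 2 to 8 over 22 alternatives, and from 2 to 7 when 1 mouse was left out. None of the 9 was lower in any alternative, and none differed between the sexes in 17, where a lone control of a sex, left when the other was taken out, was assumed to vary like the other groups. The main fit did not pair the mice by replicate number. Same-numbered mice deviated with correlations of -0.22 to 0.29 and 1 of 4 controls matched best its own number. These values are few and number 3 joins a female control and a male knockout mouse, so they cannot exclude pairing. A fit with the replicate number as a block over the 8 mice that carry numbers 1 to 4 gave 2 genes (Cd9 and Lpl), and the same 8 mice without the block also gave 2 (Cd9 and Itgax). The log2 fold change of Fabp5, -0.56 to 0.47 with 1 mouse left out, reversed to 0.52 with the block, to 0.47 without control 3 and to 0.46 without controls 1 and 3. Lpl passed also among genes with a mean of at least 5 (adjusted p = 0.0478) and with array weights (adjusted p = 0.0309). Mmp12 passed also in the fit of 4 groups (adjusted p = 0.0284), with the mean over probe sets (adjusted p = 0.04996), among genes with a mean of at least 5 (adjusted p = 0.0395), with arrays centred on the median (adjusted p = 0.0429) and with array weights (adjusted p = 0.0153). Cd68 did not pass in the fit of 4 groups (adjusted p = 0.0616), with trend and robust moderation (adjusted p = 0.115) or with the probe set of largest spread. The cause of these changes was not tested.

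Over all genes, the count of higher genes, 690, was 233 to 825 with 1 mouse left out (control 2 out 233, control 3 out 448, control 4 out 244, knockout 2 out 440 and knockout 4 out 372), 208 with the block, 267 over the same 8 mice and up to 1031 with array weights. The count of lower genes, 252, was 47 to 449 with 1 mouse left out (control 1 out 449, control 2 out 47, control 3 out 114, control 4 out 77, knockout 2 out 115, knockout 4 out 113 and knockout 5 out 144), 49 with the block, 52 over the same 8 mice, 165 with no sex term and 499 with array weights. The fits with mice left out and those of 8 mice hold fewer mice. With 1 mouse left out, other genes of lipid-associated macrophages gave 2 to 10 calls (9), signalling genes 0 to 3 (1), other TREM family receptors 0 to 3 (2), relatives 1 to 4 higher (4), pan-macrophage markers 0 to 4 (2), monocyte markers 0 to 2 (1), dendritic cell markers 0 to 2 (1), neutrophil markers 0 to 1 (1), stellate cell markers 0 to 4 (2), endothelial markers 0 to 2 (1) and bile duct cell markers 4 to 6 (6), with the count of all mice in brackets. Values near background, such as those of Itgax in controls, may understate a fold change. Array weights gave 7 pan-macrophage and 7 Kupffer cell markers.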
